A study of Mus musculus with 35 samples.

Results

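The translation initiation factors (eIFs) and elongation factors (eEFs) are the proteins that bring a ribosome to the start codon of an mRNA and then move it along the message. They were described in motoneurons cut by laser from the lumbar cord of 35 mice, as all probe sets of the array that name exactly 1 gene whose symbol begins with Eif or Eef followed by a digit, without the Eif2ak kinases. This gave 142 probe sets of 54 genes out of 45101 probe sets, of which 34958 name 1 gene. Another 8 probe sets that name a factor together with a further gene, among them those of Eef1g, Eif3j1 and Eif3j2, were left out. No probe set of Eif1, Eif2s1 or Eif4g1 was among the 142 or the 8. The filter of the methods, on intensity and on the SD over all arrays, kept 119 of the 142 probe sets, of 53 genes. The gene without a kept probe set was Eif2s3y, a gene of the Y chromosome, and the transgenic mice were females according to the methods. Each probe set is called a transcript here, and each value is a log2 intensity as the authors normalized it.

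The study asked how the mRNA of motoneurons differs in SOD1 mice, a model of amyotrophic lateral sclerosis, and whether the growth factor G-CSF alters it. SOD1 mice (B6.Cg-Tg(SOD1-G93A)1Gur/J) are hemizygous for a transgene with many copies of mutant human SOD1, and the WT mice were their littermates on the C57BL/6 background. At week 11 there were WT mice (n = 6) and SOD1 mice without treatment (n = 8). At week 15 there were WT mice (n = 7), SOD1 mice that had received vehicle from a pump under the skin since week 11 (n = 7), and SOD1 mice that had received G-CSF (filgrastim) the same way (n = 7). Each mouse gave 1 array, from about 300 dissected cells and RNA amplified with T7 polymerase in consecutive rounds. The weeks are different cohorts, and no SOD1 mouse of week 11 had a pump, so week, cohort and pump cannot be told apart. The methods describe a pump for the transgenic mice and none for the WT mice. In comparisons with WT at week 15, the transgene thus cannot be told apart from the pump and what it delivered. The words SOD1 effect stand here for the whole difference between the groups. A lower level in such a sample can come from fewer cells that hold the mRNA or from less mRNA per cell, which cannot be told apart either.

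Initiation begins when eIF2, bound to GTP, carries the initiator tRNA to the small ribosomal subunit, while eIF4E binds the mRNA cap and, with the scaffold eIF4G and the helicase eIF4A, brings in the mRNA. eIF3, eIF1 and eIF1A hold the complex open for scanning, eIF5 and eIF5B close it at the start codon, and eIF2B recharges eIF2 with GTP. eEF1A then delivers each aminoacyl-tRNA and eEF2 moves the ribosome on. Neurons, and motoneurons with their long axons in particular, translate at a high rate, and phosphorylation of eIF2 slows initiation in stressed cells.

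Levels of the 142 probe sets ran from 1.93 (Eif2s3y 1417210_at) to 11.41 (Eif4g2 1452758_s_at) as means over 35 arrays. Probe sets bind with different strength, so these intensities give no order of mRNA amounts, and the words brightest and dimmest serve only to tell the probe sets of a gene apart. Names ending in _s_at or _x_at mark probe sets whose probes may also bind other transcripts, and 32 of the factor genes had several kept probe sets. At week 11 the array of WT mouse 6, and at week 15 those of vehicle-treated mice 3 and 5, lay farthest from the median of their groups on the first 3 principal components, at distances of 149.96, 108 and 119 log2 units, followed by G-CSF-treated mouse 3 at 92.1. Without these 3 arrays 9 of the 14 calls at week 15 remained, and those of Eif2b1, Eif2s3x, Eif3h, Eif4g2 and Eif5a did not. All 11 motoneuron markers lay over the 20th centile on every array, although Chat and Slc18a3 did not exceed the median of each array. Markers of other cells were detected too, since all 7 astrocyte markers exceeded the median of each array. Of the 6 oligodendrocyte markers with a probe set 5 did so, and of the 12 microglia markers 5. These lists do not show that the samples held motoneurons alone. At week 15, 6 of 11 tested microglia markers were higher in vehicle-treated SOD1 mice than in WT, with summed log2 levels of 12 markers of 48.9 to 64.1 against 43.0 to 47.8 in WT, and the part of any marker list in the results was not tested. In the same comparison 1 of 10 motoneuron and 2 of 8 general neuron markers were lower, and 1 general neuron and 1 astrocyte marker were higher. The 18S ribosomal RNA control probe sets had mean levels of 9.62 in WT and 10.40 in SOD1 mice of week 11, of 12.13 in WT and 11.58 in vehicle-treated mice of week 15.

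Factor transcripts called at week 11 were all higher in SOD1 mice, and most of those called at week 15 were lower. All filtered transcripts leaned the same way at both weeks by their calls. Calls needed 3 criteria, a fold change of 1.5 or more, p under 0.05 before adjustment, and p under 0.1 after Benjamini-Hochberg adjustment over all filtered transcripts (limma). At week 11, 4 of the 119 factor transcripts (3.36%) were called, all higher in SOD1 mice, against 1.32% of all 31352 filtered transcripts. At week 15, 14 factor transcripts (11.8%) were called, 5 higher and 9 lower in vehicle-treated SOD1 mice, against 5.91% of all filtered transcripts. The share called lower among all filtered transcripts was 4.2% and the share called higher 1.72%. At week 11, 1.13% of all filtered transcripts were called higher and 0.188% lower. At an unadjusted p under 0.05, 21 factor transcripts were higher and 2 lower at week 11, beside 6.59% and 4.42% of all filtered transcripts (11.0% in all). At week 15, 14 were higher and 22 lower, beside 9.07% and 10.4% (19.5% in all). The median log2 difference of the factors was 0.14 at week 11 and -0.07 at week 15, beside -0.01 and 0.02 for all filtered transcripts. The SD over all probe sets of an array averaged 2.30 in WT and 2.36 in SOD1 mice of week 11. At week 15 it averaged 2.29 in WT and 2.22 in vehicle-treated mice. The mean level of the 119 factor transcripts was 6.99, 7.17, 6.87 and 6.77 in the same order. All filtered transcripts were not matched to the factors for intensity, and the part of the array SD was not tested. By sign alone, 50 of the 119 (42.0%) were higher at week 11 and lower at week 15, beside 26.1% of all filtered transcripts. Leaving out 1 mouse gave 0 to 6 calls at week 11, with 0 without WT mouse 6 of that week, and 9 to 16 at week 15, with 9 without WT mouse 6 of that week. With the 18S level as a covariate there were 0 calls at week 11 and 9 at week 15. Transcripts called in at least 1 of the 6 comparisons numbered 27, of 23 genes.

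**Figure D1:**
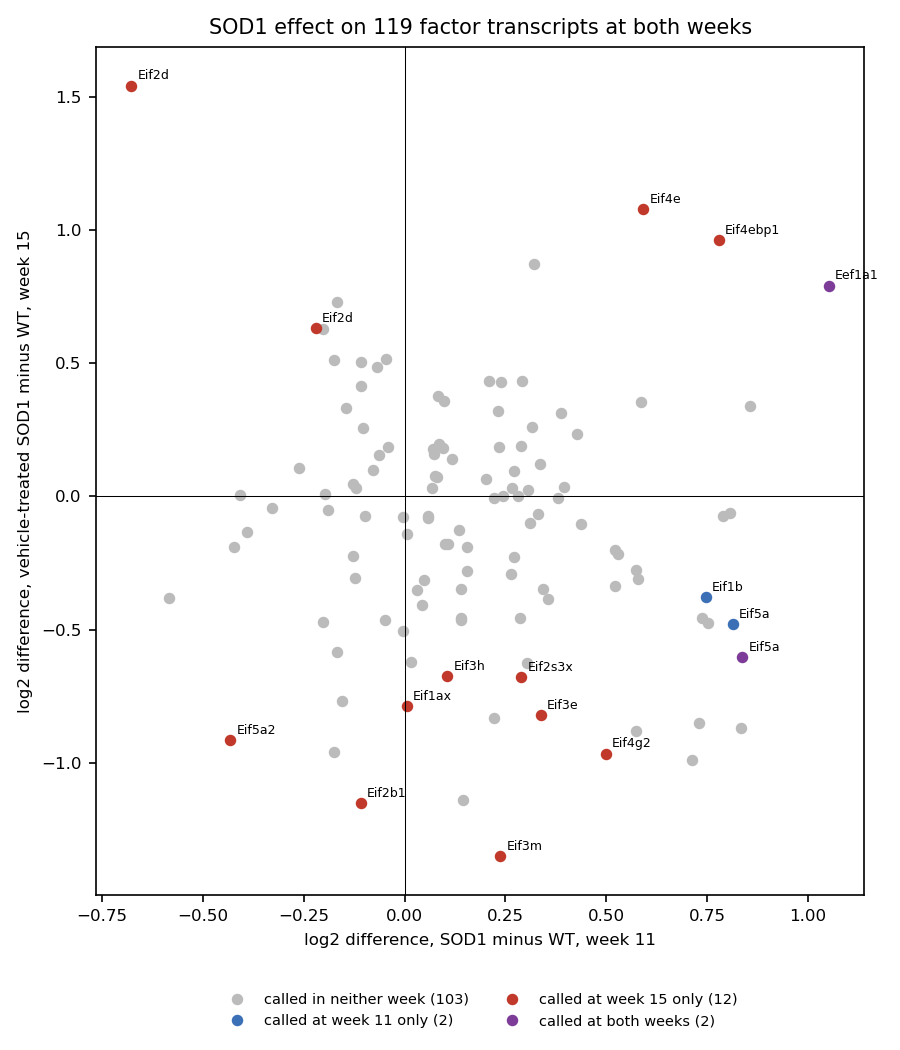
Each point is 1 of 119 factor transcripts, with the log2 difference of SOD1 minus WT mice at week 11 on the x axis and of vehicle-treated SOD1 minus WT mice at week 15 on the y axis. Colours mark the transcripts called at week 11 only (2), at week 15 only (12), at both (2) or at neither (103), and an Eif2d transcript lies alone at the upper left with -0.68 and 1.54.

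Among the elongation factors, Eef1a1 was higher in SOD1 mice at both weeks. It encodes eEF1A1, the GTPase that brings aminoacyl-tRNA to the ribosome. The level of its 1 kept probe set lay between 8.12 and 9.26 (median 9.20) in WT mice of week 11 and between 8.93 and 11.01 (median 10.18) in SOD1 mice of that week. In 7 of 8 SOD1 mice it exceeded every WT mouse. It rose 2.07-fold, by a log2 difference of 1.05 ± 0.27 (SE; adjusted p = 0.0538, limma with Benjamini-Hochberg adjustment). At week 15 its level was 7.81 to 8.98 (median 8.33) in WT and 8.10 to 9.92 (median 9.16) in vehicle-treated mice, of which 6 of 7 exceeded every WT mouse. The rise was 1.73-fold (0.79 ± 0.26, adjusted p = 0.0832). In G-CSF-treated mice its level was 8.63 to 9.65 (median 9.11), a log2 difference of -0.10 from vehicle. Leaving out 1 mouse at a time, the week 11 call was lost in 5 of 35 fits (SOD1 mice 4, 7 and 8 and WT mice 2 and 6 of that week) and the week 15 call in 9 of 35.

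Eef1a2, the form of eEF1A of adult neurons and muscle, lay between 7.01 and 7.88 (median 7.69) in WT and between 7.68 and 9.23 (median 8.37) in SOD1 mice of week 11. Its log2 difference of 0.86 did not pass the test (adjusted p = 0.158, limma with Benjamini-Hochberg adjustment), and the difference was 0.34 at week 15. Eef2, the translocase of the ribosome, had a difference of 0.53 at week 11 and -0.21 at week 15 with neither called. Eef1b2, a subunit of the exchange factor of eEF1A, had 0.31 and 0.02, and the brightest probe set of Eef2k, the kinase that inhibits eEF2, had 0.24 and 0.43. The 12 kept transcripts grouped under elongation include those of the kinase Eef2k and of Eef1e1, and several are of Eef1d. They are thus not transcripts of elongation factors alone. Of these 12, 10 had a difference above 0 at week 11 and 8 at week 15, beside 48.6% and 52.7% of all filtered transcripts. At each week 1 was called (8.33%), beside 1.32% and 5.91% of all. None of the 8 transcripts of methyltransferases that modify elongation factors was called in SOD1 mice at either week, and none reached an unadjusted p under 0.05.

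**Figure D2:**
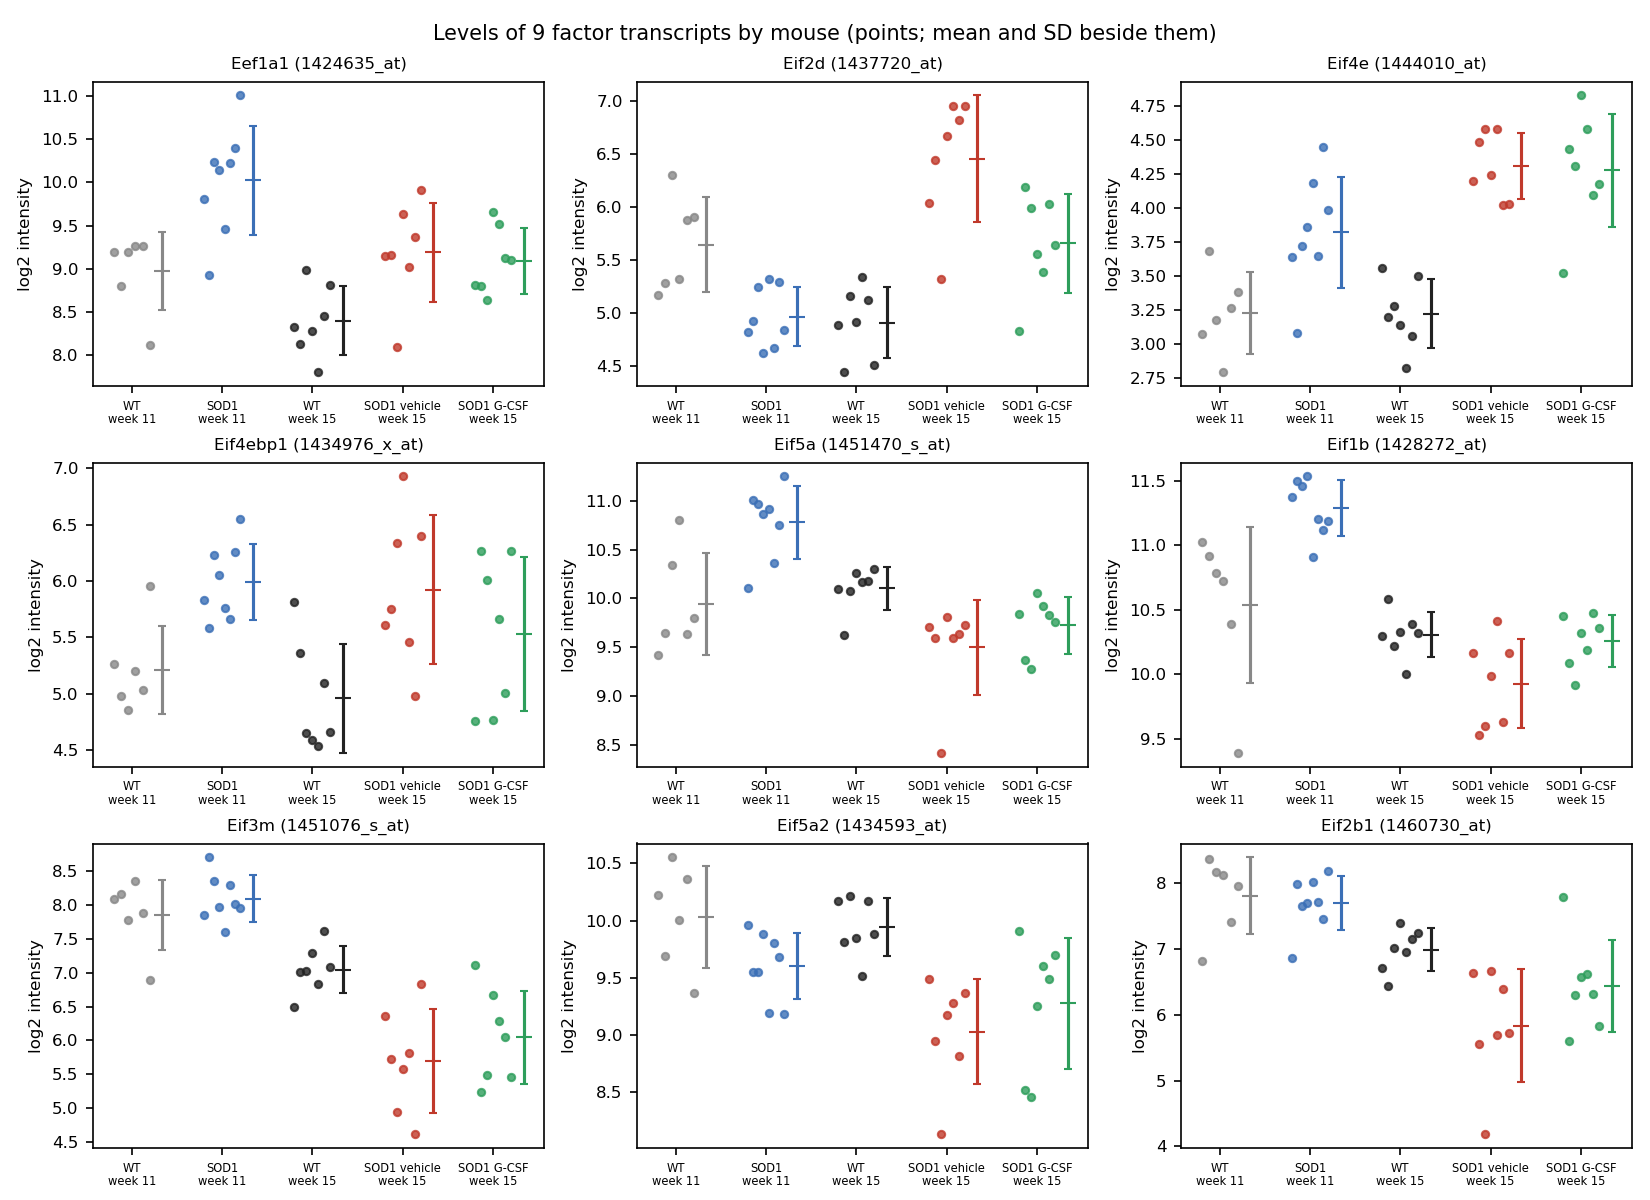
Log2 intensity (y axis) of 9 factor transcripts in each mouse (points) of the 5 groups (x axis), with the group mean and SD beside the points. The dimmest kept Eif2d transcript was at 5.32 to 6.96 in vehicle-treated mice and at 4.45 to 5.34 in WT mice of week 15, and Eif5a2 1434593_at was lower in all 7 vehicle-treated mice than in every WT mouse of that week.

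Eif2d had the largest log2 difference of the factors in either direction at week 15. Its product, eIF2D, can place tRNA on the ribosome without GTP and takes part in recycling ribosomal subunits. The transcript in question is the dimmest of 4 kept Eif2d probe sets, called the dimmest Eif2d transcript from here on. Its level was 5.18 to 6.30 (median 5.60) in WT and 4.63 to 5.32 (median 4.88) in SOD1 mice of week 11. At week 15 it was 4.45 to 5.34 (median 4.92) in WT and 5.32 to 6.96 (median 6.67) in vehicle-treated mice. All but 1 of the 7 vehicle-treated mice exceeded every WT mouse. The transcript rose 2.92-fold at week 15 (1.54 ± 0.23, adjusted p = 0.000219, limma with Benjamini-Hochberg adjustment). At week 11 the difference was -0.68 ± 0.23 and was not called (adjusted p = 0.201). The difference between both effects was itself called, at 2.22 ± 0.33 (adjusted p = 0.000921), and this held in all 35 fits without 1 mouse. The brightest, 1436724_a_at, also rose at week 15 (0.63 ± 0.22, adjusted p = 0.0899), with 6.97 to 7.98 (median 7.66) in WT and 7.68 to 8.60 (median 8.22) in vehicle-treated mice. Its call was lost in 11 of 35 fits without 1 mouse. The remaining kept probe sets, 1455797_x_at and 1451211_a_at, had differences of 0.42 and 0.26 and were not called.

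The eIF2 subunit genes with kept transcripts, Eif2s2 and Eif2s3x, gave no common direction, and Eif2s1, the alpha subunit, had no probe set among the members. Eif2s3x, the X-linked gene of the gamma subunit that binds GTP and the initiator tRNA, was called lower at 1423744_x_at, with 9.27 to 9.87 (median 9.45) in WT and 7.68 to 9.67 (median 8.98) in vehicle-treated mice of week 15. The groups overlapped, with 5 of 7 vehicle-treated mice below every WT mouse (-0.68 ± 0.23, adjusted p = 0.0832, limma with Benjamini-Hochberg adjustment). The call was lost in 9 of 35 fits without 1 mouse. Eif2s2, the beta subunit, had 6 kept transcripts whose week 15 differences ran from -0.99 (1448819_at) to 0.52 (1448820_a_at), and none was called. In SOD1 mice of week 11 Eif2s2 1456617_a_at lay at 9.92 to 10.53, above every WT mouse (9.19 to 9.62) in 8 of 8 mice, with a difference of 0.83 that was not called in the fit over the 5 groups (adjusted p = 0.263, limma) and was called in the fit on the groups of that week (adjusted p = 0.0071). At week 15 it lay at 8.34 to 9.44 in WT and 6.60 to 9.71 in vehicle-treated mice, and the change in its SOD1 effect between the weeks was called, at -1.70 ± 0.44 (adjusted p = 0.0622).

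Eif2b1, the alpha subunit of eIF2B and part of the portion that senses phosphorylated eIF2, fell at week 15. The level of Eif2b1 1460730_at was 6.44 to 7.40 (median 7.02) in WT and 4.19 to 6.68 (median 5.72) in vehicle-treated mice, with 5 of 7 below every WT mouse. The fall was 2.22-fold (-1.15 ± 0.31, adjusted p = 0.0321, limma with Benjamini-Hochberg adjustment). It held in all 35 fits without 1 mouse, with values of -1.29 to -0.88, but not without the 3 arrays that stood apart or with the 18S level as a covariate. In G-CSF-treated mice the level was 5.60 to 7.79 (median 6.32). Eif2b3, the gamma subunit, had -0.83 at week 15 and was not called. Eif2b2, Eif2b4 and Eif2b5 had differences at week 15 of -0.10 to 0.19 over their 5 kept transcripts.

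The cap-binding protein and its inhibitor each had a transcript that rose at week 15. Eif4e encodes eIF4E, and Eif4ebp1 encodes 4E-BP1, which binds eIF4E and keeps it from eIF4G until mTOR phosphorylates it. The dimmest of 4 kept Eif4e transcripts lay at 2.83 to 3.56 (median 3.20) in WT and 4.02 to 4.58 (median 4.24) in vehicle-treated mice, and all 7 exceeded every WT mouse. The rise was 2.11-fold (1.08 ± 0.18, adjusted p = 0.000836, limma with Benjamini-Hochberg adjustment) and held in all 35 fits without 1 mouse. At week 11 it lay at 2.80 to 3.68 (median 3.22) in WT and 3.09 to 4.45 (median 3.79) in SOD1 mice, with 5 of 8 above every WT mouse, and the difference of 0.59 was not called (adjusted p = 0.146). These levels are near the array medians (3.19 to 3.47), where GCRMA pulls values towards a common low level. The other Eif4e transcripts did not move with it, since 1423220_at had 0.10, 1450909_at 0.11 and 1450908_at -0.88 at week 15, with none called.

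Eif4ebp1 1434976_x_at lay at 4.54 to 5.81 (median 4.66) in WT and 4.98 to 6.93 (median 5.75) in vehicle-treated mice of week 15. The groups overlapped, and 3 of 7 vehicle-treated mice exceeded every WT mouse. It rose 1.95-fold (0.96 ± 0.28, adjusted p = 0.0421, limma with Benjamini-Hochberg adjustment) and kept its call in all 35 fits without 1 mouse. It lost the call in the fit on the groups of week 15 and with the 18S level as a covariate. At week 11 its levels were 4.85 to 5.95 (median 5.11) in WT and 5.58 to 6.55 (median 5.94) in SOD1 mice, a difference of 0.78 that was not called (adjusted p = 0.229, limma) except in the fit on the groups of that week (adjusted p = 0.0999). Its other probe sets, 1417562_at and 1417563_at, had 0.35 and 0.12 at week 15. The 3 kept transcripts of Eif4ebp2 had 0.03 to 0.63 and Eif4enif1, which carries eIF4E into the nucleus, had -0.08.

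Eif4g2 encodes a relative of eIF4G that lacks the eIF4E-binding part and supports initiation without the cap. Its transcript 1415863_at fell at week 15 from 8.84 to 9.53 (median 9.25) in WT to 7.00 to 9.47 (median 7.97) in vehicle-treated mice, with 5 of 7 below every WT mouse (-0.97 ± 0.27, adjusted p = 0.0381, limma with Benjamini-Hochberg adjustment). Without vehicle-treated mouse 3 the call was lost and the difference was -0.76. A second transcript, 1428362_at, had -0.46 and the dim 1458431_at had 0.38, with neither called. The brightest Eif4g2 probe set, 1452758_s_at, did not pass the filter and was not tested. Its means at week 15 were 11.42 in WT and 11.48 in vehicle-treated mice, so the fall is that of 1415863_at and not of every Eif4g2 probe set. Transcripts of 1 gene with opposed signs, each at an unadjusted p under 0.05, were present at week 15 in 3 of the 32 genes with several transcripts, Eif2s2, Eif4e and Eif4g2. Of 9 such genes with a call at week 15, none was called at every transcript.

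**Figure D3:**
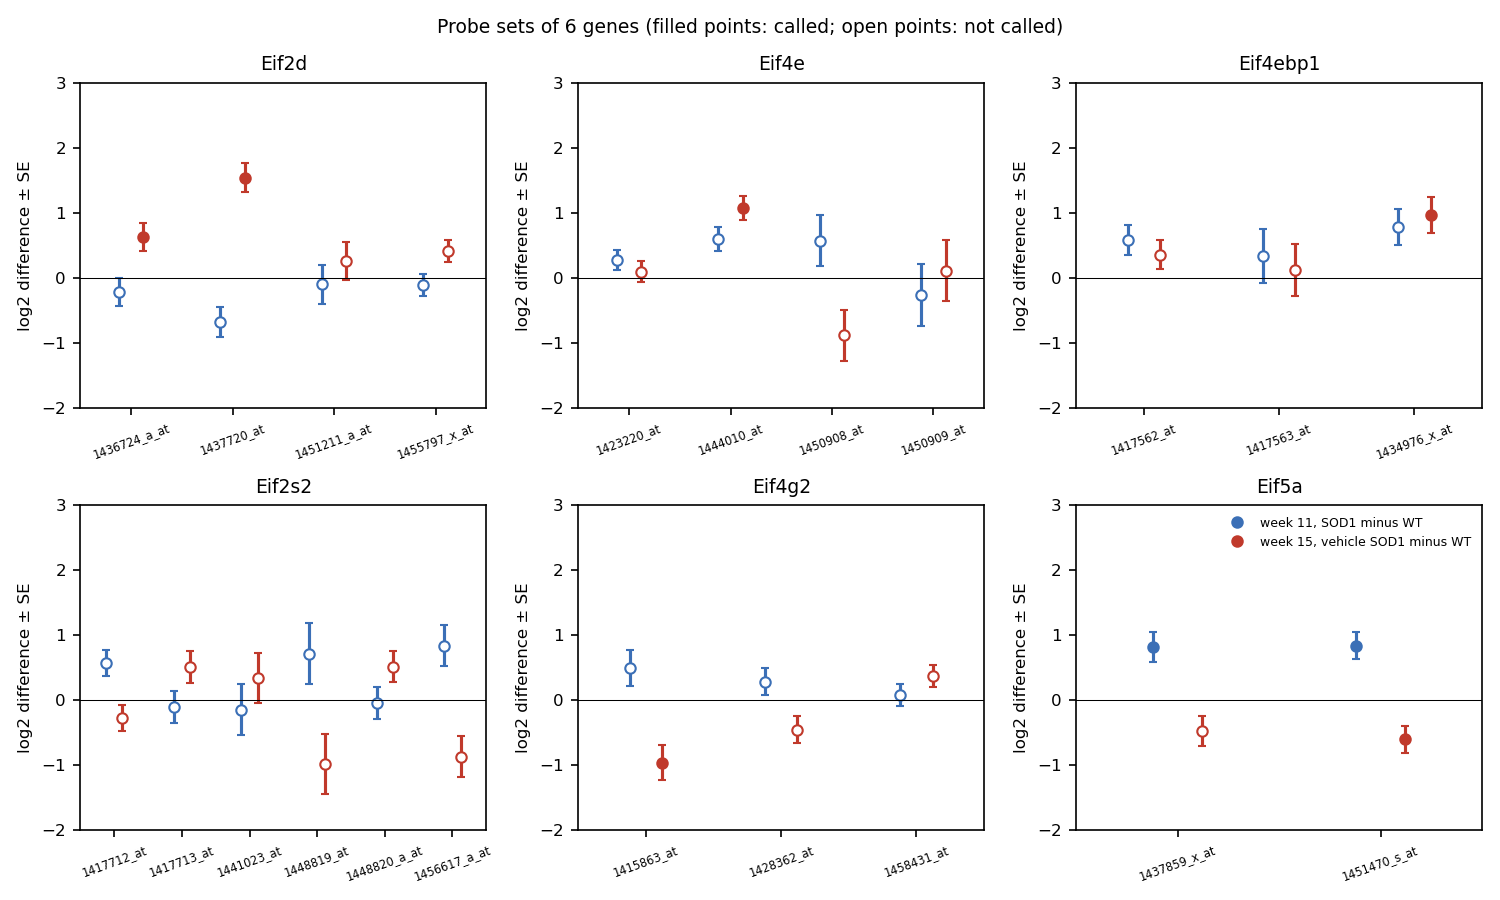
Log2 difference ± SE (y axis) of each kept probe set (x axis) of 6 genes, for SOD1 minus WT at week 11 (blue) and vehicle-treated SOD1 minus WT at week 15 (red), filled where called. Both Eif5a probe sets were filled at week 11 and lay above 0 then and below 0 at week 15, whereas the week 15 points of Eif2s2 ran from -0.99 to 0.52.

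Eif5a and Eif5a2 encode the proteins that carry the modified amino acid hypusine and help the ribosome through difficult peptide bonds. Eif5a rose at week 11 at both kept probe sets. Its 1451470_s_at lay at 9.42 to 10.80 (median 9.72) in WT and 10.10 to 11.25 (median 10.89) in SOD1 mice, with 5 of 8 above every WT mouse (0.84 ± 0.21, adjusted p = 0.0537, limma with Benjamini-Hochberg adjustment). Its 1437859_x_at rose by 0.81 ± 0.23 (adjusted p = 0.0982), from 6.52 to 7.62 (median 6.65) in WT to 6.84 to 8.24 (median 7.77) in SOD1 mice. The call of 1451470_s_at was lost in 5 of 35 fits without 1 mouse (SOD1 mouse 8 and WT mice 1, 2, 5 and 6 of week 11), and that of 1437859_x_at in 27 of 35.

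At week 15 the Eif5a difference was the other way. Eif5a 1451470_s_at lay at 9.63 to 10.30 (median 10.17) in WT and 8.42 to 9.81 (median 9.64) in vehicle-treated mice. It fell by 0.60 on the log2 scale (SE 0.21, adjusted p = 0.0951, limma with Benjamini-Hochberg adjustment), a call lost in 18 of 35 fits without 1 mouse, while 1437859_x_at had -0.48 and was not called. The change of the SOD1 effect between the weeks was called at both, with -1.44 ± 0.30 (adjusted p = 0.0272) and -1.29 ± 0.33 (adjusted p = 0.0572). Eif5a2, the paralogue, fell at week 15 at 1434593_at, from 9.52 to 10.21 (median 9.88) in WT to 8.13 to 9.49 (median 9.17) in vehicle-treated mice. All 7 vehicle-treated mice lay below every WT mouse (-0.92 ± 0.22, adjusted p = 0.0156), and the call held in all 35 fits without 1 mouse. Its second probe set, 1438256_at, had -0.38 and was not called.

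Of the factors that act at the start codon, Eif1b rose at week 11. It encodes a close relative of eIF1, which guards the choice of start codon. Eif1b 1428272_at lay at 9.39 to 11.03 (median 10.76) in WT and 10.91 to 11.53 (median 11.29) in SOD1 mice, with 7 of 8 above every WT mouse (0.75 ± 0.18, adjusted p = 0.0473, limma with Benjamini-Hochberg adjustment). WT mouse 6 was the lowest, and without it the difference was 0.52 and not called. The call was also lost without WT mouse 5. At week 15 the levels were 9.999 to 10.58 (median 10.32) in WT and 9.53 to 10.42 (median 9.99) in vehicle-treated mice, a difference of -0.38 that was not called. The change between the weeks, -1.13 ± 0.26, was called (adjusted p = 0.0417) and held in all 35 fits without 1 mouse.

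Eif1ax, which encodes eIF1A and lies on the X chromosome, fell at week 15 at 1437071_at, from 8.80 to 9.34 (median 9.21) in WT to 7.52 to 9.02 (median 8.61) in vehicle-treated mice. In 5 of 7 the level was below every WT mouse (-0.79 ± 0.21, adjusted p = 0.0310, limma with Benjamini-Hochberg adjustment). Its other transcripts, 1419736_a_at and 1449576_at, had -0.58 and -0.62 and were not called. Eif5b, the GTPase that joins the subunits, had -0.96, -0.62 and -1.14 at its 3 transcripts with none called, and the brightest Eif5 transcript, 1415723_at, had 0.00. The 18 kept transcripts grouped under start site and joining include those of Eif1ad and of Eif6, which keeps the large subunit from joining early. They are thus not transcripts of start-site and joining factors alone. Of these 18, 14 had a difference above 0 at week 11, beside 48.6% of all filtered transcripts. At week 15, 15 had a difference below 0, beside 47.3%. At each week 1 was called (5.56%), beside 1.32% and 5.91% of all.

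The eIF3 complex, the large scaffold of the small subunit, had 21 kept transcripts of 11 subunits. At week 11 none was called, and 17 had a difference above 0, beside 48.6% of all filtered transcripts. At week 15, 3 were called, all lower (14.3%), beside 4.2% of all filtered transcripts called lower. Eif3m 1451076_s_at fell 2.55-fold, from 6.49 to 7.61 (median 7.02) in WT to 4.62 to 6.83 (median 5.72) in vehicle-treated mice, 6 of 7 of them below every WT mouse (-1.35 ± 0.29, adjusted p = 0.00696, limma with Benjamini-Hochberg adjustment). This held in all 35 fits without 1 mouse. Eif3h 1415962_at fell from 9.15 to 9.53 (median 9.40) to 7.92 to 9.16 (median 8.80), with 6 of 7 mice below every WT mouse (-0.67 ± 0.18, adjusted p = 0.0290), and the call was lost without vehicle-treated mouse 5 (-0.55). Eif3e 1460432_a_at fell from 9.73 to 10.55 (median 10.09) to 8.34 to 10.26 (median 9.23), with 5 of 7 below every WT mouse (-0.82 ± 0.25, adjusted p = 0.0540). Its call was lost without vehicle-treated mouse 2 or 6 or WT mouse 6 of week 15, and the other Eif3e transcripts, 1434523_x_at and 1439268_x_at, had -0.08 and 0.15. Subunits Eif3a, Eif3b, Eif3c, Eif3d, Eif3f, Eif3i, Eif3k and Eif3l had no call at either week.

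**Figure D4:**
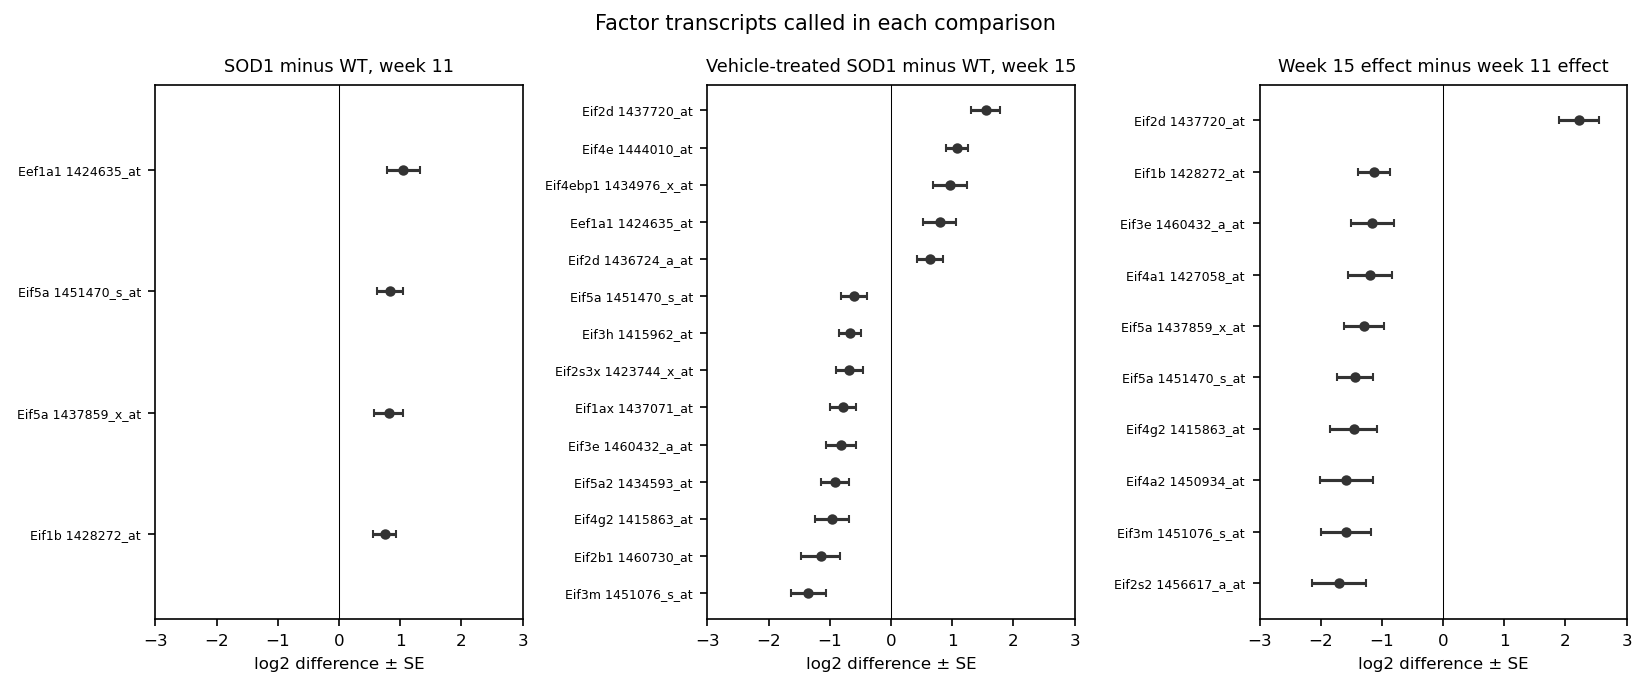
Log2 difference ± SE (x axis, same scale in each panel) of the factor transcripts (y axis) called for SOD1 against WT at week 11 (4), for vehicle-treated SOD1 against WT at week 15 (14) and for the difference between both effects (10). All 4 lie above 0 in the left panel, 9 of 14 lie below 0 in the middle panel, and 9 of 10 lie below 0 in the right panel.

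The test of the difference between the SOD1 effects of both weeks called 10 factor transcripts (8.40%), 1 more positive and 9 more negative at week 15, against 2.93% of all filtered transcripts (0.778% more positive and 2.15% more negative). Besides the transcripts of Eif2d, Eif5a, Eif1b and Eif2s2 given above, Eif3m had -1.59 ± 0.41, Eif4g2 1415863_at -1.46 ± 0.39 and Eif3e 1460432_a_at -1.16 ± 0.35. The helicase genes Eif4a2 and Eif4a1 completed the list. Eif4a2 1450934_at was at 8.32 to 10.76 (median 10.52) in WT and 10.18 to 11.41 (median 10.93) in SOD1 mice of week 11, and at 10.48 to 10.87 (median 10.71) in WT and 9.14 to 10.63 (median 10.04) in vehicle-treated mice of week 15. Its effects were 0.73 and -0.85, not called at either week, and their difference was -1.58 ± 0.43 (adjusted p = 0.0673, limma with Benjamini-Hochberg adjustment), a call lost without WT mouse 6 or SOD1 mouse 2 or 4 of week 11 or vehicle-treated mouse 3. Eif4a1 1427058_at had 0.74 and -0.46 with a difference of -1.19 ± 0.36 (adjusted p = 0.0936). Leaving out 1 mouse at a time ended this call in 20 of 35 fits and that of Eif3e in 21 of 35. The brightest Eif4a1 transcript, 1434985_a_at, was not called. Its means were 9.83 in WT and 10.14 in SOD1 mice of week 11, and 9.90 in WT and 9.80 in vehicle-treated mice of week 15. Without WT mouse 6 of week 11, 3 transcripts stayed past the thresholds of this test, those of Eif1b and Eif2d and Eif5a 1451470_s_at, and with the 18S level as a covariate 1, the dimmest of Eif2d.

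The word CACGTG, known as the E-box that Myc and related factors bind, is shown because several of the called genes carry it near their start sites. Windows of 300 bases, from 250 before to 50 after a start site, were available for 43 of the 54 genes (RefSeq, GRCm38.p6). The word reads the same on both strands. It lay in a window of 12 of these 43 genes (27.9%), beside 8.09% of 27025 genes in all, and in 7 of the 17 genes with a window and a called transcript. A call in any of the comparisons counted here, and those of Eif3a and Eif3k were between WT mice only. The word was chosen after the calls had been seen, so the 7 of 17 do not test a link with the calls. Windows were not matched for base composition. The 12 genes were Eef1aknmt, Eef2, Eef2k, Eif1b, Eif3a, Eif3f, Eif3k, Eif4a1, Eif4e, Eif4h, Eif5a and Eif5a2. A further word, AAGATGGC, searched on both strands, lay in windows of 6 of the 43 genes (14.0%) and of 3.19% of all genes. Stretches of 30 bases around the E-box, 1 for each of 6 called genes, each before the start site and written along the gene's strand with the word in capitals, are these:
Eif5a (chr11:69921443-69921472, minus strand): aaggggcggggtCACGTGtgtgcgtcatcc
Eif5a2 (chr3:28781148-28781177, plus strand): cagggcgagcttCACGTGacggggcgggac
Eif1b (chr9:120492570-120492599, plus strand): cgtgcggacggtCACGTGgcggcggcgcgc
Eif4e (chr3:138527192-138527221, plus strand): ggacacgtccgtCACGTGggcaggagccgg
Eif4a1 (chr11:69672595-69672624, minus strand): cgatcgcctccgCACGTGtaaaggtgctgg
Eif3k (chr7:28981915-28981944, minus strand): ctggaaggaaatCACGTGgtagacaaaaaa
Eif4e, Eif5a and Eif5a2 each hold the word once more before a start site, which is not printed, and Eif3a holds it after its start site. These genes did not share 1 direction, since Eif5a and Eif1b transcripts rose at week 11, an Eif4e transcript rose and an Eif5a2 transcript fell at week 15.

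After G-CSF, no factor transcript was called against vehicle by limma with Benjamini-Hochberg adjustment, beside 0.0383% of all filtered transcripts. Among all filtered transcripts 0.0128% were called higher and 0.0255% lower. At an unadjusted p under 0.05, 5 factor transcripts were higher and 4 lower, beside 4.3% and 4.0% of all filtered transcripts (8.3% in all), and Tukey's comparison, which the methods name, called 2, the dimmest Eif2d transcript and Eif3l 1423728_at. The dimmest Eif2d transcript lay at 4.83 to 6.19 (median 5.64) in G-CSF-treated and 5.32 to 6.96 (median 6.67) in vehicle-treated mice, a difference of -0.80 ± 0.23 (adjusted p = 0.290). Without vehicle-treated mouse 3 it was -0.99 ± 0.21 and called (adjusted p = 0.0747). Eif3l, a subunit of eIF3, lay at 4.79 to 6.46 (median 5.93) in G-CSF-treated and 5.60 to 7.24 (median 6.67) in vehicle-treated mice, with a difference of -0.70 ± 0.23 (adjusted p = 0.360). Eif2s2 1456617_a_at had 0.88 ± 0.31 (adjusted p = 0.419), with 8.49 to 9.73 (median 9.27) in G-CSF-treated mice, and Eif3h had 0.40.

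Against WT mice of week 15, which also serve the vehicle comparison, G-CSF-treated mice had 1 called factor transcript (0.840%), higher, beside 1.13% of all filtered transcripts (0.348% higher and 0.778% lower). This was the dimmest Eif4e transcript, at 3.53 to 4.83 (median 4.31) in G-CSF-treated mice, of which 6 of 7 exceeded every WT mouse (1.05 ± 0.18, adjusted p = 0.00377, limma with Benjamini-Hochberg adjustment). Its difference from vehicle was -0.03 ± 0.18. The dimmest Eif2d transcript had 0.75 ± 0.23 against WT (adjusted p = 0.131), Eif3m -1.003 ± 0.29 (adjusted p = 0.105) and Eif5a2 1434593_at -0.67 ± 0.22 (adjusted p = 0.164). The count was 5 without G-CSF-treated mouse 1, 3 without vehicle-treated mouse 3, and 2 without any one of vehicle-treated mice 5, 6 and 7, G-CSF-treated mice 2 and 4 and WT mouse 6 of week 11.

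In WT mice alone, 10 factor transcripts (8.40%) differed between week 15 and week 11, 4 higher and 6 lower, beside 5.56% of all filtered transcripts (3.29% higher and 2.26% lower). Eif3a 1416661_at, a transcript of the largest eIF3 subunit, was higher at week 15, at 3.39 to 5.29 (median 4.22) against 2.17 to 3.39 (median 2.53), by 1.66 ± 0.38 (adjusted p = 0.00752, limma with Benjamini-Hochberg adjustment). Its other transcripts had 0.19, 0.19 and 0.33. Eif4a1 1427058_at was higher by 1.35 ± 0.27, at 8.42 to 9.14 against 6.50 to 7.82, without overlap of the groups. With the 18S level as a covariate this difference was -0.085. The other kept Eif4a1 transcripts were not called. Their WT means at weeks 11 and 15 were 9.83 and 9.90 (1434985_a_at) and 3.49 and 3.68 (1430980_a_at). Eif3c rose at both of its _x_at transcripts, by 0.68 (1456083_x_at) and 0.77 (1456374_x_at).

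Lower in WT mice of week 15 were Eef1akmt1 1418386_at (-1.50 ± 0.36), which encodes a lysine methyltransferase of eEF1A, Eif1ad 1428542_at (-1.03 ± 0.31), Eif6 1427578_a_at (-0.91 ± 0.23), which keeps the large subunit from joining early, Eif3k 1452674_a_at (-0.83 ± 0.23), the dimmest of Eif2d (-0.73 ± 0.24) and Eif4g2 1428362_at (-0.64 ± 0.22). Eif6 lay at 6.75 to 7.97 at week 15 and at 8.11 to 8.46 at week 11, without overlap. The other kept transcripts of Eif2d and Eif4g2 were not called. For Eif2d, the WT means at weeks 11 and 15 were 7.20 and 7.53 (1436724_a_at), 6.01 and 6.24 (1455797_x_at) and 7.00 and 6.51 (1451211_a_at). For Eif4g2 1415863_at they were 9.19 and 9.21. Without WT mouse 6 of week 11 the count was 18, and with the 18S covariate 2. The 18S probe sets themselves differed between these cohorts, with 8.88 to 10.39 at week 11 and 11.59 to 12.39 at week 15.

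A list of 42 further genes of the pathway (eIF2 kinases and phosphatases, mTOR signalling, release and recycling factors) had kept transcripts for 38 genes, 88 in all. At week 11, 2 (2.27%) were called, both higher, beside 1.32% of all filtered transcripts (1.13% higher). They were Eif2ak2 1440866_at, a transcript of the eIF2 kinase activated by double-stranded RNA (0.72 ± 0.16, adjusted p = 0.0178, limma with Benjamini-Hochberg adjustment), at 2.10 to 2.50 in WT and 2.46 to 3.85 in SOD1 mice, and Gtpbp2 1416690_at, a GTPase that rescues stalled ribosomes (0.70 ± 0.20). The WT levels of this Eif2ak2 transcript lie around the filter's 20th centile (2.40) and below every array median, so its difference is one against a level near background. At week 15, 9 (10.2%) were called, 1 higher, which was Gtpbp2 1442305_at (0.91 ± 0.25), and 8 lower, beside 5.91% of all filtered transcripts (1.72% higher and 4.2% lower). The 8 belonged to Abce1, Etf1, Gspt1, Gspt2 and Ddx3x.

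Etf1 encodes the release factor eRF1, Gspt1 and Gspt2 its GTPase partner eRF3, and Abce1 splits the ribosome afterwards. Gspt2 1418109_at was at 5.97 to 6.89 (median 6.54) in WT and 2.78 to 5.72 (median 5.14) in vehicle-treated mice, and all 7 lay below every WT mouse (-1.52 ± 0.34, adjusted p = 0.00936, limma with Benjamini-Hochberg adjustment). Abce1 fell by 1.40 at 1416014_at, with 5.81 to 6.78 in WT and 3.01 to 5.86 in vehicle-treated mice, and by 0.98 at 1416015_s_at. Gspt1 had -1.69, -0.81 and -1.69 at its 3 called transcripts, Etf1 1451208_at -1.19 ± 0.39 and the helicase Ddx3x -0.87 ± 0.26. The other kept transcripts of Gspt1, Etf1 and Ddx3x were not called at week 15. Whether the calls of this list hold without 1 mouse or under other processing was not tested. The change of the SOD1 effect between the weeks was called for 6 transcripts of Abce1, Etf1, Gspt1 and Gspt2, all more negative at week 15 (6.82% of the 88, beside 2.93% of all filtered transcripts). A further Gspt1 transcript had a change of 0.43, the other way, and was not called (adjusted p = 0.272, limma with Benjamini-Hochberg adjustment). After G-CSF limma called 0 transcripts of the list against vehicle, beside 0.0383% of all, with 10 at an unadjusted p under 0.05 (11.4%, beside 8.3%). Against WT it called 1, Etf1 1451208_at (-1.82), which is 1.14% beside 1.13%. In WT mice, 4 transcripts were higher at week 15 than at week 11 (Mknk2, Pabpc1, Tsc1 and Etf1, by 0.90 to 1.21) and 3 lower (Dhx29, Eif2ak1 and Paip1, by -0.87 to -0.68), 7.95% in all beside 5.56% of all filtered transcripts.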

How the data were processed

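The authors hybridized the amplified RNA of each mouse to Affymetrix mouse genome arrays and normalized them with GCRMA in Expression Console, whose version is not given in the sources used here. What they deposited are log2 intensities of all 45101 probe sets, which were named through gene numbers. The filter of the methods kept 31352 of them, those above 2.40 (the 20th centile, log2) on 4 or more arrays whose SD reached 0.241 (the 30th centile).

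limma (version 3.58.1, R 4.3.3) was fitted to all 31352 with 1 mean per group over the 35 arrays and an empirical Bayes prior, and p-values were adjusted (Benjamini-Hochberg) over all of them within each comparison. The step was tested on simulated data with known changes and independent normal noise. Arrays that stand apart were not simulated, so that test says nothing about calls that depend on them. The number of arrays limits the precision. The labels do not say whether mice shared a litter. Nothing but the mouse number separates samples of a group.

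All factor transcripts called in any comparison are named, with the members the study names, other probe sets of these genes, and the brightest probe set of further factors where a role was described. The members, lists and tests were chosen with earlier results of these data known. The words searched in promoters were chosen after the calls had been seen. Alternatives were other thresholds, quantile normalization, no filter, groups of 1 week, a replicate block, array weights, an 18S covariate, leaving out mice, and Tukey's comparison as in the methods. Tables and plots were made in Python 3.11.15 with pandas 2.3.3 and matplotlib 3.10.9.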

Additional observations from a re-analysis of the deposited data

Results flagged for a closer look

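Values far from those of the other mice of a group were found in 5 of 77 groups of values tested, and chance alone gives about 1 in 20, or 3.85. Vehicle-treated mouse 3 was far below its group for Eif5a at both probe sets, with 8.42 at 1451470_s_at (nearest other mouse 9.59) and 5.43 at 1437859_x_at (nearest 6.30). WT mouse 6 of week 11 had 8.32 for Eif4a2 1450934_at (nearest 10.39). WT mouse 5 of week 15 had 8.80 for Eif1ax 1437071_at (nearest 9.14), and WT mouse 2 of week 15 had 9.63 for Eif5a 1451470_s_at (nearest 10.07). Of these mice, vehicle-treated mouse 3 and WT mouse 6 of week 11 are among the 3 whose arrays stood apart.

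The SOD1 effect differed between the weeks, by a test of the difference itself (limma), for 10 factor transcripts, given here as the week 15 effect minus the week 11 effect on the log2 scale. The dimmest Eif2d transcript had 2.22. Eif2s2 1456617_a_at had -1.70, Eif3m 1451076_s_at -1.59, Eif4a2 1450934_at -1.58, Eif4g2 1415863_at -1.46 and Eif5a 1451470_s_at -1.44. Eif5a 1437859_x_at had -1.29, Eif4a1 1427058_at -1.19, Eif3e 1460432_a_at -1.16 and Eif1b 1428272_at -1.13. The weeks are also different cohorts, and the pump was present in the SOD1 mice of week 15 alone, so age, cohort and pump cannot be told apart.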

How the results depend on the processing

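Of 1647 alternative values computed for 39 named differences, 1412 kept their direction and their side of the thresholds, 234 kept the direction and lost the call, and 1 changed sign, Eif4a1 1427058_at in WT mice between the weeks with the 18S covariate (-0.085). Of the 39 calls, 7 held under every alternative run, and 18 in every fit without 1 mouse. The number of called factor transcripts at week 11 (4) was 2 with the groups of that week only (Eif2s2 1456617_a_at and Eif4ebp1 1434976_x_at, none of the 4), 9 with array weights, 2 without the 3 arrays that stood apart, 0 with the 18S covariate and 7 with Tukey's comparison. At week 15 (14) it was 7 with the groups of that week and 9 with the 18S covariate. For G-CSF against vehicle (0) it was 2 with Tukey's comparison. For G-CSF against WT (1) it was 2 after quantile normalization, 5 with array weights, 7 without the 3 arrays, 2 with the 18S covariate and 6 with Tukey's comparison. The test of the difference between the weeks (10) gave 6 after quantile normalization, 3 without the 3 arrays and 1 with the 18S covariate. WT mice between the weeks (10) gave 24 with array weights, 22 without the 3 arrays and 2 with the 18S covariate. The cause was not tested. Leaving out 1 mouse gave 0 to 6 calls at week 11 (0 without WT mouse 6, 1 without SOD1 mouse 8, WT mouse 2 or WT mouse 5, 2 without SOD1 mouse 4, SOD1 mouse 7 or WT mouse 1), 9 to 16 at week 15 (9 without WT mouse 6), 0 to 1 for G-CSF against vehicle, 1 to 5 for G-CSF against WT, 3 to 13 for the difference between the weeks and 8 to 18 for WT mice.

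Replicate numbers did not pair the samples: of 66 same-numbered pairs of arrays, 1 had a correlation of deviations over 0.1, and the median was -0.0026, beside 0.0019 for other pairs. A replicate block changed the count at week 11 to 0 and gave 14 at week 15 (13 of them shared, without Eif2d 1436724_a_at), 0 for G-CSF against vehicle, 1 for G-CSF against WT, 9 for the difference between the weeks and 10 for WT mice. Tukey's comparison was not run for the difference between the weeks, and fits on 1 week cannot give it or the comparison of WT mice. Signal limits the dim transcripts most, since GCRMA compresses values near the array medians.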
